A study of Mus musculus with 36 samples.

Results

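The circadian clock genes described here were the 10 genes Per1, Per2, Per3, Dbp, Nr1d1, Nr1d2, Tef, Hlf, Cry1 and Cry2. They were chosen by name, and every probe set annotated to just one of these symbols was taken, which gave 22 of the 34945 single-gene probe sets on the array and 10 of 18193 genes. Per3 had 6 probe sets, Per2 and Tef 3 each, Dbp, Nr1d2 and Hlf 2 each, and Per1, Nr1d1, Cry1 and Cry2 a single probe set each. Biotin-labelled cDNA made from total RNA of cortex, hypothalamus and hippocampus was hybridised to Affymetrix mouse arrays, 36 in all, with 3 animals in each of 12 groups. Every mouse was Cre+ (hemizygous Camk2a-CreERT2) and Dicer lox/lox on a C57BL/6J background. Mice given tamoxifen from 8 weeks of age are called Dicer cKO mice and mice given the sunflower oil and ethanol vehicle are the controls. Brains were taken 4 or 8 weeks after treatment, so the 4 groups of each tissue were cKO at 4 weeks, control at 4 weeks, cKO at 8 weeks and control at 8 weeks. The Camk2a promoter drives the Cre in excitatory forebrain neurons, so other cells of the dissected tissue kept Dicer. The control mice carried both alleles but received no tamoxifen, and the drug and the loss of Dicer cannot be told apart in these groups. In such bulk tissue, fewer cells of a type and less RNA per cell cannot be told apart. All mice were killed within a narrow window a few hours after light onset, and the question asked of the 10 genes was whether single arrays differed in them as tissue taken at different times of day would.

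The circadian clock is a feedback loop that runs in nearly every cell. The activators Clock (or its relative Npas2) and Arntl, also called Bmal1, bind E-boxes and switch on the Period and Cryptochrome genes, whose proteins return to the nucleus and repress the activators. The same E-boxes drive the nuclear receptors Nr1d1 and Nr1d2 (REV-ERB alpha and beta), which repress Arntl, and Dbp. Dbp, Tef and Hlf are the PAR bZIP transcription factors, which bind D-boxes in many output genes. In the mouse brain the suprachiasmatic nucleus of the hypothalamus keeps time for the other regions, and transcripts such as Dbp and Nr1d1 swing widely over the day while Arntl runs in the opposite phase.

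Sites of the kind these factors bind stood in the promoters of 5 of the 10 genes, and are shown to give the letters of the motifs named above; none was found for Dbp, Nr1d1, Hlf or Cry2 in this window. RefSeq promoters of build GRCm38.p6, from 250 bases before to 50 bases after each gene start, were searched on both strands for the E-box CACGTG, the D-box TTATGTAA (TTACATAA on the other strand) and the nuclear receptor half-site AGGTCA, which reads TGACCT on the other strand. There were 11 such promoters for 9 of the members, and no entry for Per2. The E-box was in 7.15% of all 32851 promoters and in 4 of the members' 11, those of Per1, Cry1 and both starts of Tef. The D-box was in 0.938% of all promoters and in 1 of the members', that of Per3, which held it at 2 places. The half-site was in 16.3% of all promoters and in those of Nr1d2 and Per1. A match of letters is a description and not a bound site. In the windows of 30 bases below, written 5′ to 3′ on the strand of the gene, capitals mark the motif.
Per1 E-box, chr11:69098771-69098800, plus strand: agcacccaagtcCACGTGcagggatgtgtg
Cry1 E-box, chr10:85185097-85185126, minus strand: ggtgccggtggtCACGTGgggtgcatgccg
Tef E-box, chr15:81802534-81802563, plus strand: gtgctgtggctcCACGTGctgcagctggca
Tef E-box, chr15:81811264-81811293, plus strand: cacctggcccagCACGTGtctacatcgttt
Per3 D-box, chr4:151044852-151044881, minus strand: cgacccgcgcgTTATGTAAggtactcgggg
Per3 D-box, chr4:151044805-151044834, minus strand: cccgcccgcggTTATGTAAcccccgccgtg
Nr1d2 half-site, chr14:18239166-18239195, minus strand: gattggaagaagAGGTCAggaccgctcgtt
Per1 half-site, chr11:69098800-69098829, plus strand: gtgacacagcccTGACCTcagtgggggcca

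The arrays were compared with each other and with their tissue labels before the clock genes were read. The median correlation of an array with the others of its tissue was 0.970 to 0.989 in cortex, 0.982 to 0.994 in hypothalamus and 0.981 to 0.992 in the arrays labelled hippocampus. In cortex 3 arrays stood apart from their groups, replicate 3 of cKO at 4 weeks, replicate 3 of control at 4 weeks and replicate 2 of cKO at 8 weeks. On the first principal component of the cortex arrays, which held 41.3% of the variance, the 4-week cKO arrays lay at 33.2, 33.1 and 14.7 and the 4-week control arrays at -22.3, -20.7 and 22. Of 6 hippocampal markers, 4 were low in the arrays labelled hippocampus. Prox1, of dentate granule cells, averaged 4.65 on the log2 scale, above 28.9% of probe sets, Lct 3.81 (15.7%) and Dsp 3.81 (15.8%). Neurod6, of pyramidal neurons, averaged 3.57, above 11.9% of probe sets, where it was above 73.8% of them in cortex. Zbtb20 and Wfs1 were high, above 90.2% and 86.4% of probe sets, and they were above 83.5% and 89.8% in cortex and 90.6% and 89.8% in hypothalamus. Those 12 arrays are called the arrays labelled hippocampus throughout. Cortex and hypothalamus matched their labels, with Tbr1 above 72.9% of probe sets in cortex and Pmch and Hcrt above 100% and 99.3% in hypothalamus. Levels below are RMA values on the log2 scale. They are not compared between genes, since each probe set has its own response, nor between tissues, which were normalized separately.

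In the cortex 4 weeks after treatment, 1 of the 10 clock genes passed the 15% false discovery rate of limma, and it was Hlf, lower in cKO mice. Of all genes tested, 5.23% passed (4.22% higher and 1.01% lower), beside which a single member of 10 stands near the background. At an unadjusted p under 0.05 there were 2 of 10, Hlf and Dbp, where all genes gave 22.4%. The members did not move one way, with 5 estimates above 0 and 5 below, and their median change was -0.01 against 0.11 over all genes. The changes here are of the probe set with the highest variance for each gene.

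Among the Period genes, whose proteins form the repressing arm of the loop with the cryptochromes, no gene-level difference passed in the cortex at 4 weeks. Per1 (1449851_at) had 9.38, 9.34 and 9.55 in cKO mice against 9.03, 8.94 and 9.59 in controls. The groups overlapped because control replicate 3, which stood apart on the whole array, was the highest of the 6. The difference was 0.24 ± 0.19 (SE, adjusted p = 0.436 by limma). Per2 (1457350_at) had the same shape, with 6.77, 7.0 and 6.98 in cKO mice against 6.18, 6.63 and 7.17 in controls, a difference of 0.26 ± 0.21 (adjusted p = 0.440). Per3, a member whose loss has milder effects on the clock in mice than that of Per1 or Per2, depended on the probe set. Its most variable probe set, 1458176_at, had 6.61, 6.89 and 7.34 in cKO mice against 7.05, 7.11 and 7.30 in controls, a difference of -0.21 ± 0.19 (adjusted p = 0.485).

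In a second limma fit on every single-gene probe set, 2 of the 22 member probe sets passed in the cortex at 4 weeks, against 2.88% of all probe sets, and they were of Per3 and Hlf. Per3 1441445_at had 7.11, 7.09 and 7.01 in cKO mice against 6.48, 6.58 and 6.54 in controls, so every cKO array lay above every control array. It rose by 0.53 ± 0.14 (SE, adjusted p = 0.135). The probe set 1421087_at of the same gene had 8.42, 8.56 and 8.43 in cKO mice against 7.81, 8.02 and 8.33 in controls, a difference of 0.42 ± 0.13 that did not pass (adjusted p = 0.170). The probe sets of Per3 thus gave estimates on both sides of 0, and 2 of the 6, 1421086_at and 1460662_at, read between 4.18 and 4.81 in every cortex array. Over the 22 probe sets, the cKO and control arrays did not overlap at 6, where 17.7% of all probe sets did the same. The 5 with all cKO arrays higher were Per3 1421087_at and 1441445_at, Dbp 1418174_at, and Tef 1424175_at and 1450184_s_at (14.3% of all probe sets), and the 1 with all cKO arrays lower was Hlf 1434736_at (3.37%).

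The cryptochromes, the partners of the Period proteins and the stronger repressors of Clock and Arntl, differed little in the cortex at 4 weeks. Cry1 had 6.39, 6.41 and 6.48 in cKO mice against 6.73, 6.56 and 6.42 in controls. The lowest control value was that of replicate 3, inside the cKO range, and the difference was -0.15 ± 0.10 (SE, adjusted p = 0.366 by limma). Cry2 had 7.98, 7.83 and 7.75 in cKO mice against 7.77, 7.98 and 8.05 in controls, with a difference of -0.09 ± 0.11 (adjusted p = 0.618).

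Of the nuclear receptors that repress Arntl, Nr1d1 had 6.93, 6.79 and 6.70 in cKO mice against 6.46, 6.61 and 6.91 in controls. Its difference was 0.15 ± 0.13 (SE, adjusted p = 0.485 by limma). The paralog Nr1d2 (1416958_at) had 9.60, 9.57 and 9.15 in cKO mice against 9.62, 9.71 and 8.80 in controls. In both groups replicate 3, the array that stood apart, was the lowest. The difference of 0.07 ± 0.23 turned to -0.01 when arrays were centred on their medians.

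The PAR bZIP factors, which carry clock time to output genes, had the largest gene-level estimates of the 10 genes in the cortex at 4 weeks, and these had both signs. Dbp (1418174_at) had 8.08, 7.84 and 7.83 in cKO mice against 7.21, 7.50 and 7.74 in controls. The groups did not overlap, by a gap between 7.83 and 7.74, and the difference was 0.44 ± 0.18 (SE, adjusted p = 0.197 by limma). Its other probe set, 1438211_s_at, had 8.95, 8.71 and 9.09 in cKO mice against 8.94, 9.14 and 8.73 in controls, a difference of -0.02 ± 0.14. Hlf (1434736_at) had 8.33, 8.47 and 8.88 in cKO mice against 9.15, 9.19 and 8.95 in controls. It fell by 0.54 ± 0.15 (SE, adjusted p = 0.135), with the replicate 3 arrays of both groups nearest to each other. The call was lost with arrays centred on their medians (-0.61, adjusted p = 0.158). None of the 10 genes passed when any 1 array other than the 3 described above was left out (at most 3.13% of all genes). The other Hlf probe set, 1434735_at, had 9.76, 9.94 and 9.91 in cKO mice against 9.72, 9.58 and 9.84 in controls, a difference of 0.16 ± 0.11 of the opposite sign.

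Of the probe sets chosen for the 10 genes by their variance, that of Tef, 1438033_at, had the largest spread within groups in each tissue. Tef 1438033_at had 5.02, 5.43 and 6.87 in cKO mice against 6.44, 6.57 and 6.48 in controls 4 weeks after treatment. A single cKO array, replicate 3, lay above all controls while the other cKO arrays lay below them, and the difference was -0.72 ± 0.36 (SE, adjusted p = 0.247 by limma). The other Tef probe sets had the opposite sign. Tef 1450184_s_at had 7.09, 6.89 and 6.62 in cKO mice against 6.25, 6.24 and 6.56 in controls, a difference of 0.52 ± 0.17 (adjusted p = 0.176 in the fit on every probe set). Tef 1424175_at had 10.29, 10.46 and 10.27 in cKO mice against 9.91, 10.04 and 10.25 in controls, a difference of 0.27 ± 0.12 (adjusted p = 0.238). For Dbp, Tef, Hlf and Per3, probe sets of one gene thus differed in the sign of the estimate.

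**Figure D1:**
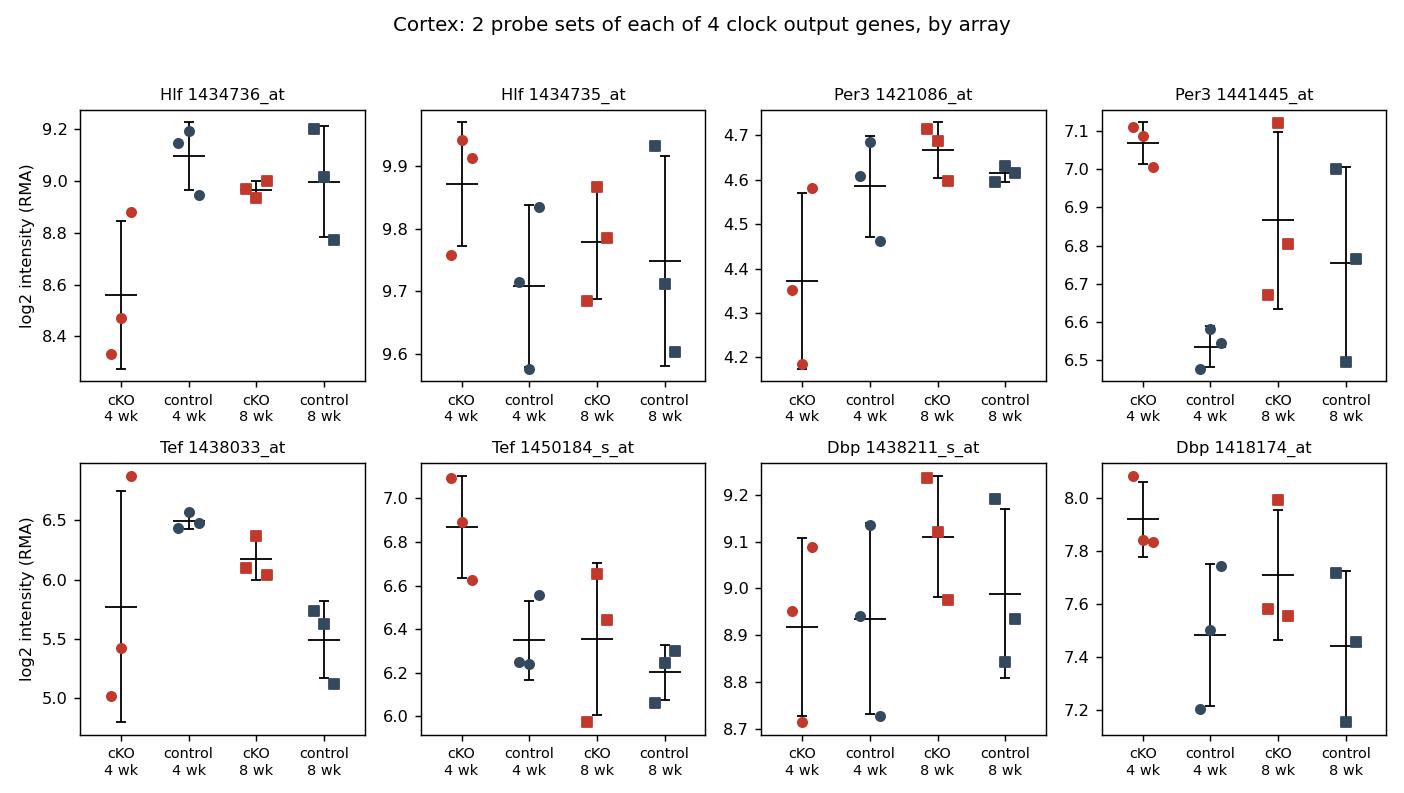
Log2 RMA level in each cortex array of the probe sets with the lowest and the highest change at 4 weeks for Hlf, Per3, Tef and Dbp, with cKO points left of control points and lines for the mean and SD of 3 arrays. Hlf 1434736_at lies at 8.33 to 8.88 in cKO mice against 8.95 to 9.19 in controls at 4 weeks, while Hlf 1434735_at lies at 9.76 to 9.94 in cKO mice against 9.58 to 9.84 in controls.

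The first principal component, on which the 3 cortex arrays stood apart, was set beside these values. Across the 12 cortex arrays, with group means removed, the first principal component correlated with Tef 1424175_at at r = 0.82, Nr1d1 at 0.80, Per2 1457350_at at 0.79, Dbp 1418174_at at 0.68 and Per1 at 0.65. The correlation was negative for Cry1 (-0.78), Nr1d2 1416958_at (-0.71), Per3 1442243_at (-0.62), Per3 1421086_at (-0.60), Dbp 1438211_s_at (-0.57) and Hlf 1434736_at (-0.55), and Nr1d2 1416959_at had 0.71. Over all 22 probe sets it lay between -0.78 and 0.82. Near 0 were Per3 1458176_at (-0.007), the probe set of its gene-level result, and Per2 1417602_at (0.02). Tef 1438033_at, likewise the probe set of the gene-level result, had -0.25. The component was built from the same arrays, and the share of all genes with an r as large was not computed. These correlations share arrays and are descriptions. Without the 3 arrays, 7 of the 10 genes passed at 4 weeks, against 60.9% of all genes. They were Per1 (0.38), Per2 (0.48), Dbp (0.61) and Nr1d1 (0.32), higher in cKO mice, and Tef (-1.28), Hlf (-0.77) and Cry1 (-0.25), lower. In the same cortex comparison with all arrays, 7 of 10 leptomeninges genes passed as higher in cKO mice, where 4.22% of all genes did. Their median change was 0.68 against 0.11 over all genes, and their summed level was 66.1 to 67.1 in cKO arrays against 57.2 to 62.4 in control arrays. Markers of excitatory neurons summed to 70.1 to 73.0 in cKO arrays against 73.0 to 75.8 in control arrays, with 2 of 9 passing as lower (1.01% of all genes). The nuclear RNA Malat1 was at 8.47, 8.54 and 10.16 in cKO arrays against 10.26, 10.12 and 9.94 in control arrays. The part of these in the clock gene values was not tested.

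In the cortex 8 weeks after treatment, none of the 10 genes passed, and none of all genes tested did (0%). At an unadjusted p under 0.05 by limma there was 1 of 10, Nr1d1, where all genes gave 4.69%. Nr1d1 had 6.78, 6.93 and 6.68 in cKO mice against 6.64, 6.39 and 6.49 in controls, a difference of 0.29 ± 0.13 (SE, adjusted p = 0.874). All 3 cKO values lay above all 3 control values. Tef 1438033_at had 6.10, 6.37 and 6.04 in cKO mice against 5.74, 5.62 and 5.12 in controls, a difference of 0.68 ± 0.36 (adjusted p = 0.874) and opposite in sign to that at 4 weeks. With Per3 1442243_at (6.96, 6.92 and 6.85 in cKO mice against 6.83, 6.71 and 6.69 in controls), 3 of 22 probe sets did not overlap, against 15.3% of all. Hlf 1434736_at had 8.97, 8.93 and 9.00 in cKO mice against 9.20, 9.02 and 8.77 in controls, a difference of -0.03 ± 0.15.

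**Figure D2:**
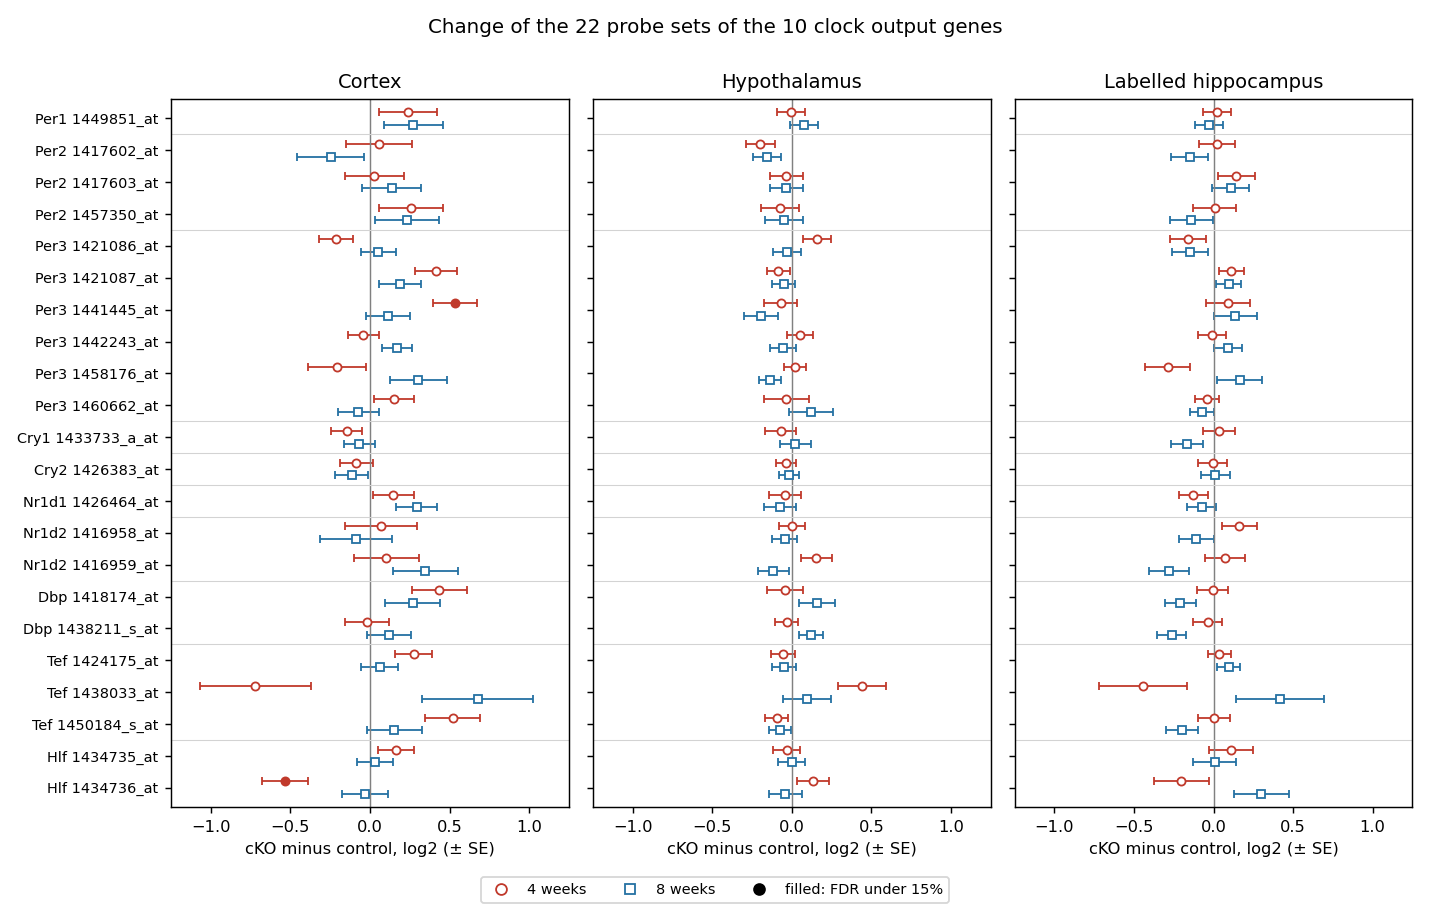
Change of each clock gene probe set (cKO minus control, log2, with its standard error) in each tissue 4 and 8 weeks after treatment, filled where the false discovery rate was under 15%. Only Per3 1441445_at (0.53) and Hlf 1434736_at (-0.54) in the cortex at 4 weeks are filled.

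Whether the cKO effect in the cortex differed between 8 and 4 weeks was tested as an interaction, and none of the 10 genes passed (0.0068% of all genes). At an unadjusted p under 0.05 by limma there were 2 of 10, where all genes gave 12.2%: Tef (1.40 ± 0.51, adjusted p = 0.350) and Hlf (0.51 ± 0.21, adjusted p = 0.380). Among cKO cortices alone, 8 minus 4 weeks, none passed, nor did any gene (0%). Hlf was at 8.97, 8.93 and 9.00 at 8 weeks against 8.33, 8.47 and 8.88 at 4 weeks, a difference of 0.41 (adjusted p = 0.218). Cry1 was at 6.78, 6.69 and 6.67 at 8 weeks against 6.39, 6.41 and 6.48 at 4 weeks, a difference of 0.29 (adjusted p = 0.209), with all values at 8 weeks higher. Without the arrays that stood apart, 6 of the 10 genes passed in this comparison, against 55.2% of all genes. Among control cortices, where 0.0068% of genes passed, none of the 10 did. Tef 1438033_at was at 5.74, 5.62 and 5.12 at 8 weeks against 6.44, 6.57 and 6.48 at 4 weeks, with no overlap and a difference of -1.0 ± 0.36 (adjusted p = 0.634). The cKO and time comparisons share arrays.

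In the hypothalamus, the region that holds the central clock, none of the 10 genes passed 4 weeks after treatment (0% of all genes) or 8 weeks after it (0.0129%). At an unadjusted p under 0.05 by limma there was 1 of 10 at 4 weeks, Tef, against 2.76% of all genes, and none at 8 weeks, against 6.38%. Tef 1438033_at had 7.68, 7.57 and 7.52 in cKO mice against 6.70, 7.45 and 7.30 in controls at 4 weeks. Every cKO value lay above every control value, but the size of the difference, 0.44 ± 0.15 (SE, adjusted p = 0.998), came mostly from the control at 6.70. That array, replicate 1, had the lowest Malat1 level of the tissue, 9.37, and a median correlation of 0.984 with the other arrays. A larger absolute change was found in 0.886% of genes. Tef was the 1 of 22 probe sets without overlap at 4 weeks, against 6.85% of all probe sets. The other 9 genes had estimates between -0.07 and 0.13.

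At 8 weeks in the hypothalamus, 6 of 22 probe sets did not overlap, against 12.1% of all, and the differences were small. The cKO replicates 1 and 2 lay at -30.7 and -21.6 on the first principal component of the tissue (28.4% of the variance). The cKO replicate 3 lay at 4.29 and the controls at 1.95 to 8.24. The part of this in the values below was not tested. Per3 1441445_at had 7.58, 7.87 and 7.86 in cKO mice against 7.88, 7.99 and 8.02 in controls, a difference of -0.19 ± 0.11 (SE, adjusted p = 0.913 in the limma fit on every probe set). Per3 1458176_at had 7.96, 8.19 and 8.16 in cKO mice against 8.27, 8.22 and 8.24 in controls, a difference of -0.14 ± 0.07 (adjusted p = 0.876). Dbp 1438211_s_at was the single probe set with all cKO arrays higher, at 10.10, 9.91 and 9.87 in cKO mice against 9.85, 9.80 and 9.86 in controls. Per2 1417602_at, Per3 1421087_at and Nr1d2 1416959_at, the last of which did not pass the filter on low values, were lower in all cKO arrays by 0.05 to 0.16 on average. No member passed in this tissue in the interaction (0% of all genes), or between times in cKO mice (0.0129%) or in controls (0%).

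In the arrays labelled hippocampus, none of the 10 genes passed at 4 or at 8 weeks (0% of all genes at either time), and none had an unadjusted p under 0.05 by limma, against 6.33% of all genes at 4 weeks and 5.95% at 8 weeks. Both Dbp probe sets were lower in all cKO arrays than in all control arrays at 8 weeks. Dbp 1418174_at had 8.49, 8.37 and 8.47 in cKO mice against 8.73, 8.52 and 8.70 in controls, a difference of -0.21 ± 0.10 (SE, adjusted p = 0.769). Dbp 1438211_s_at had 9.19, 9.32 and 9.29 in cKO mice against 9.57, 9.42 and 9.60 in controls, a difference of -0.26 ± 0.09 (adjusted p = 0.816 in the fit on every probe set). They were the 2 of 22 probe sets without overlap, against 13.5% of all. In the cortex at 8 weeks the estimate for 1418174_at was 0.27 ± 0.18, of the opposite sign. The Nr1d2 probe sets of the arrays labelled hippocampus also agreed in sign. Each had its lowest group mean in cKO mice at 8 weeks, 10.63 for 1416958_at and 5.43 for 1416959_at. The difference from controls was -0.28 ± 0.13 for 1416959_at (adjusted p = 0.769 by limma).

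At 4 weeks the arrays labelled hippocampus held one cKO array apart in Tef and Hlf, replicate 3, which also differed across the genome. It lay at -24.9 on the first principal component of the tissue (24.3% of the variance), against -4.06 to 7.33 for the other 4-week arrays, and its Malat1 level, 7.82, was the lowest of the 12. With group means removed, that component correlated over the 12 arrays with Tef 1438033_at at r = 0.74 and with Hlf 1434736_at at 0.36, as a description. None of the 10 genes passed without this array either, where all genes gave at most 2 with any 1 array left out. Tef 1438033_at had 6.35, 6.41 and 5.15 in cKO mice against 6.40, 6.36 and 6.49 in controls. Hlf 1434736_at had 9.75, 9.61 and 9.04 in cKO mice against 9.73, 9.65 and 9.62 in controls, and replicate 3 was the low one in both genes. Of 22 probe sets, 1 did not overlap (10.5% of all), Per3 1421087_at, with 8.35, 8.43 and 8.41 in cKO mice against 8.31, 8.32 and 8.23 in controls. Among cKO arrays, the genes with an unadjusted p under 0.05 between 8 and 4 weeks were Per2 (-0.27), Nr1d2 (-0.36) and Cry1 (-0.23), each with an adjusted p of 0.848, so 3 of 10 where all genes gave 5.55%. In the interaction 1 of 10, Per3, was under it (0.45, adjusted p = 0.617 by limma), where all genes gave 8.03%. None of the 10 passed in this comparison, in the interaction or among controls, nor did any other gene (0%). Nr1d2 1416959_at was at 5.31, 5.40 and 5.57 at 8 weeks against 5.61, 5.89 and 5.85 at 4 weeks.

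The cortex effect at 4 weeks was set against that of the hypothalamus in one fit, with the animal as a block, since 11 animals gave both tissues. The difference passed for 8 of the 21 member probe sets tested (38.1%), against 18.3% of all probe sets, and the same number had an unadjusted p under 0.05 (25.3% of all). The Dbp, Per3 1421087_at, Per3 1441445_at, Tef 1424175_at and Tef 1450184_s_at probe sets were higher in the cortex contrast by 0.33 to 0.62 on the log2 scale, and Hlf 1434736_at, Tef 1438033_at and Per3 1421086_at were lower. With arrays taken as independent it was 7 of 21 (10.6% of all). Against the arrays labelled hippocampus, 0 of 20 probe sets differed at 4 weeks by limma (1.74% of all), with 4 at an unadjusted p under 0.05 (15.1% of all), and 10 of 20 did without the 3 cortex arrays that stood apart (37.7% of all). No member passed between hypothalamus and the arrays labelled hippocampus at 4 weeks (0% of all), nor at 8 weeks in any tissue difference (0% for cortex minus hypothalamus, 0.00395% for cortex and 0.0495% for hypothalamus minus the arrays labelled hippocampus). At 8 weeks an unadjusted p under 0.05 was found for 3 of 21 probe sets in cortex minus hypothalamus (6.74% of all), 3 of 20 in cortex minus the arrays labelled hippocampus (4.98%) and 1 of 20 in hypothalamus minus them (5.37%), and at 4 weeks for 0 of 20 in the last of these (3.12%).

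Arrays of one group differed among themselves in the clock genes by different amounts in the tissues. The within-group SD of the median gene was 0.18 in cortex, 0.13 in hypothalamus and 0.15 in the arrays labelled hippocampus. In cortex the SD was 0.52 for Tef, above which stood 3.02% of genes, 0.33 for Nr1d2 (11.3%) and 0.29 for Per2 (15.9%). Dbp, at 0.24, Per1, at 0.26, and Per3, at 0.25, also lay above the median gene. Nr1d1, at 0.16, Cry2, at 0.11, and Cry1, at 0.089, lay below it. In hypothalamus the SD was 0.21 for Tef (12.7%) and 0.051 for Cry2 (97.4%), and Per1 and Nr1d2 lay below the median gene. In the arrays labelled hippocampus Tef (0.41, 2.48%) and Hlf (0.24, 12.6%) spread most, and Per1 had an SD of 0.097. The range of Dbp 1418174_at over 12 arrays was 7.15 to 8.08 in cortex, 8.48 to 8.93 in hypothalamus and 8.37 to 8.80 in the arrays labelled hippocampus. That of Nr1d1 was 6.39 to 6.93 in cortex, 7.20 to 7.56 in hypothalamus and 7.02 to 7.55 in the arrays labelled hippocampus.

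Pairs of members were read because arrays taken at different hours would differ in several of these genes at once. Over the 45 pairs of the 10 genes, with group means removed and 12 arrays a tissue, the median Pearson r was 0.04 in cortex, 0.02 in hypothalamus and -0.11 in the arrays labelled hippocampus, against 0.06, 0.01 and 0.01 over all gene pairs. Positive pairs numbered 24, 24 and 18 of 45 in the same order of tissues, where 54.4%, 51.0% and 50.6% of all gene pairs were positive. The pair with the lowest r in cortex was Per1 and Nr1d2, at -0.86. The pair Dbp and Nr1d1 stood at the other end, with r = 0.93 in cortex, 0.69 in hypothalamus and 0.79 in the arrays labelled hippocampus. The share of all genes with a higher r to Dbp was 0.0544% in cortex (8 genes), 7.52% in hypothalamus and 1.12% in the arrays labelled hippocampus. Without the 2 arrays farthest from the median it was 0.92, 0.25 and 0.55, and with the other Dbp probe set, 1438211_s_at, it was -0.05, 0.72 and 0.30. Tef 1438033_at and Hlf 1434736_at moved together with r of 0.86, 0.71 and 0.81. Other probe set pairs of Tef and Hlf in cortex gave r between -0.65 and 0.67. The Hlf probe sets correlated with each other at 0.35, 0.54 and 0.79, and Tef 1438033_at with Tef 1450184_s_at at -0.44 in cortex. The points share arrays, normalization and, in cortex, the arrays that stood apart. The pairs were examined after their values were seen.

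**Figure D3:**
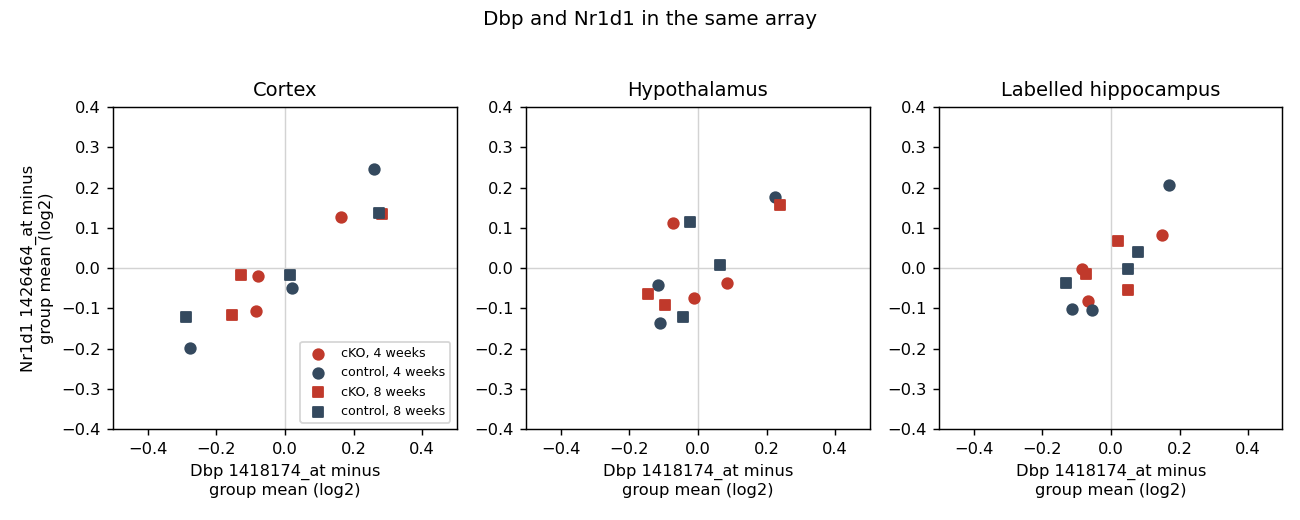
Dbp 1418174_at (horizontal axis) against Nr1d1 1426464_at (vertical axis) in each array as deviation from its group mean (log2), by tissue. The points lie along a line in cortex (r = 0.93), and in hypothalamus the relation rests on the 2 farthest arrays (r = 0.25 without them).

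An index of clock phase was formed for each array as the mean deviation of the 8 genes Per1, Per2, Per3, Dbp, Nr1d1, Nr1d2, Tef and Hlf minus that of the 3 activators Arntl, Clock and Npas2. It has no test, since the members were chosen by name for this question. In cortex at 4 weeks it was 0.04, 0.45 and 0.26 in cKO mice against -0.20, -0.16 and 0.14 in controls. The 8 genes did not make this gap, with mean deviations of -0.12, -0.04 and 0.20 in cKO mice against -0.07, 0.07 and 0.16. It came from the 3 activators, at -0.16, -0.49 and -0.05 in cKO mice against 0.13, 0.23 and 0.01. With group means removed, Arntl correlated with the mean of the 8 genes at r = 0.76 over the cortex arrays, not in the opposite direction. Clock, at -0.64, and Npas2, at -0.14, had negative r over these cortex arrays, so the 3 activators differed in sign. The r of Arntl was -0.14 in hypothalamus and 0.49 in the arrays labelled hippocampus. In cortex at 8 weeks the index was -0.13, 0.33 and -0.05 in cKO mice against -0.21, -0.25 and -0.21 in controls. The highest value of each of the 4-week control and 8-week cKO groups was that of the array that stood apart. The groups overlapped at 4 weeks and did not at 8 weeks. In hypothalamus all 12 arrays lay between -0.11 and 0.16, and in the arrays labelled hippocampus between -0.16 and 0.11. Group means in the arrays labelled hippocampus at 8 weeks were -0.09 in cKO mice and 0.07 in controls.

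**Figure D4:**
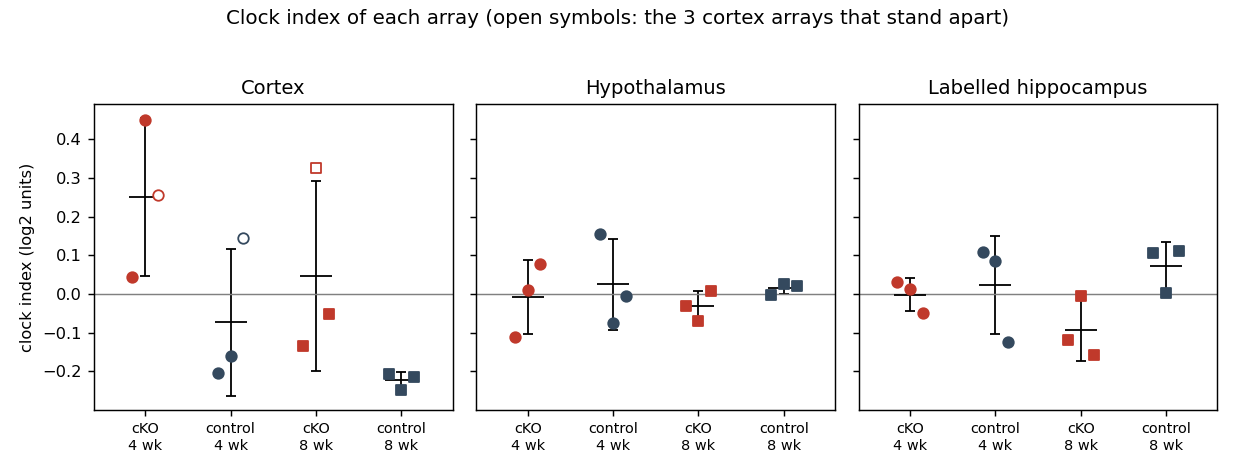
Clock index of each array (log2, 8 genes minus Arntl, Clock and Npas2), with cKO points left of control points in each tissue and time. Cortex arrays spread from -0.25 to 0.45, and the other tissues lie between -0.16 and 0.16.

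Cortex and hypothalamus of one animal were taken at one time of day, so a difference in that time between animals would be shared by both tissues. Over 11 animals with group means removed, no gene passed after adjustment over all genes (exact permutation test of Pearson's r, 432 permutations, two-sided, smallest p possible 0.00231). With that floor and 14554 genes, the clock genes alone could not have passed at any r. The lack of a pass therefore does not decide the question, and the values of r are a description. Cry2 had the highest r, 0.51 (Spearman's rho 0.50, exact p = 0.167, adjusted p = 0.970), and 0.48 without the 2 animals farthest from the median. Per2 had 0.48, Per3 0.29, Per1 0.28, Cry1 0.18, Nr1d1 0.05, Nr1d2 0.03, Dbp -0.04, Hlf -0.22 and Tef -0.38, where the median of all genes was 0.07. The r of Per2 was 0.16 without the 2 farthest animals. Dbp and Nr1d1, which had the highest r of any pair within the cortex, both lay below the median gene here. Their Spearman's rho was 0.12 and 0.38. These values depended on the 3 cortex arrays that stood apart. Without them (9 animals) r was 0.76 for Per2, 0.63 for Per1, 0.57 for Nr1d1, 0.45 for Cry2, 0.36 for Dbp and 0.32 for Cry1. It was 0.01 for Per3, -0.0024 for Hlf, -0.17 for Tef and -0.41 for Nr1d2, where the median of all genes was 0.05. At the level of probe sets, examined after seeing the gene values, Per2 1417602_at had r = 0.75 (rho 0.88, exact p = 0.00694, adjusted p = 0.906) and 0.83 without the 2 farthest animals, and 2.73% of probe sets had a higher r. Tef 1450184_s_at had r = -0.78 (rho -0.71, exact p = 0.0370, adjusted p = 0.962).

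**Figure D5:**
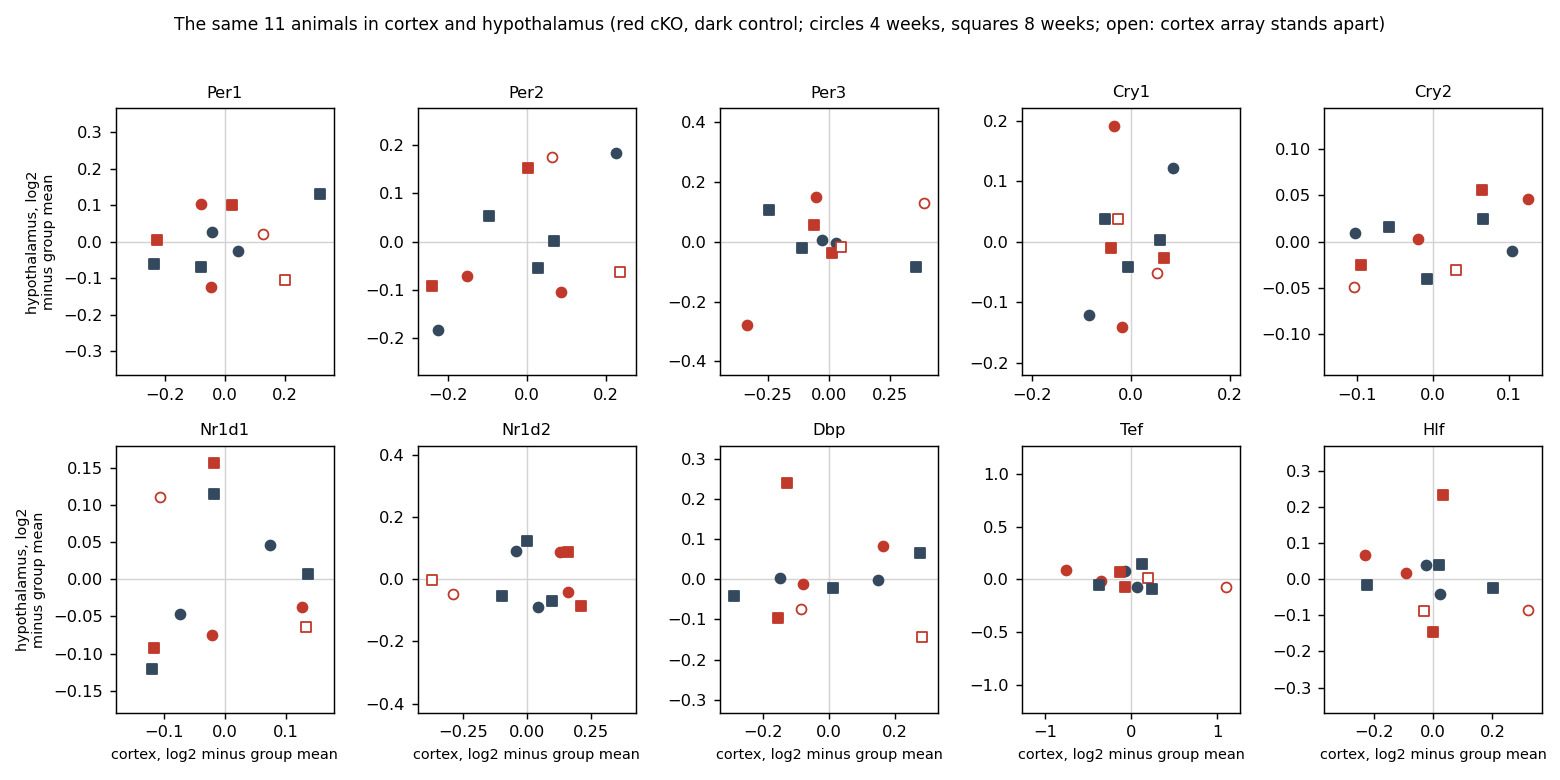
Deviation from the group mean (log2) of clock genes in the hypothalamus (vertical axis) against the cortex (horizontal axis) of the same animal, 1 point for each of 11 animals. The values of r lay between -0.38 for Tef and 0.51 for Cry2. No gene passed after adjustment, in a test that these genes alone could not have passed.

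The activators of the loop and the cues that reset it were read from lists of other genes. Of 6 measured clock activators, none passed in the cortex at 4 weeks by limma, 2 had an unadjusted p under 0.05 (22.4% of all genes), 5 estimates were below 0 and the median was -0.36. Arntl had 5.46, 4.78 and 6.07 in cKO mice against 5.84, 6.08 and 6.52 in controls, a difference of -0.71 ± 0.27 (SE, adjusted p = 0.179). In the arrays labelled hippocampus at 8 weeks none of the 6 passed, 1 had an unadjusted p under 0.05 (5.95% of all genes), and all 6 estimates were above 0, with a median of 0.20 and an Arntl estimate of 0.31 (adjusted p = 0.769). Of 17 other clock genes measured in cortex, 2 rose at 4 weeks, where 4.22% of all genes rose. The 2 were Fbxw11, part of a ligase that targets Period proteins, with 5.98, 5.91 and 5.41 in cKO mice against 5.19, 5.02 and 5.27 in controls (0.60, adjusted p = 0.111), and Nampt, the enzyme of NAD synthesis, with 4.44, 4.24 and 4.22 in cKO mice against 3.39, 3.89 and 3.92 in controls (0.57, adjusted p = 0.129). The control values of Nampt lay below the cortex filter limit of 4.12 and its cKO values just above it, so that call rests on levels near the floor.

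Of the cues, none of 9 temperature-responsive genes passed in the cortex at 4 weeks, and 3 had an unadjusted p under 0.05, where all genes gave 22.4%. Those with the lowest p were Hsp90aa1 (-1.23, adjusted p = 0.151 by limma) and Hspa8 (-1.51, adjusted p = 0.172), both chaperones. Of 12 glucocorticoid-responsive genes 1 rose (4.22% of all genes), the sulfotransferase Sult1a1, with 7.07, 6.91 and 7.40 in cKO mice against 6.12, 6.18 and 6.98 in controls (0.70, adjusted p = 0.141). None of 15 activity-induced genes passed, and none had an unadjusted p under 0.05. None of the genes on these lists passed in hypothalamus or in the arrays labelled hippocampus at 4 or 8 weeks, nor in cortex at 8 weeks. Of 13 genes of the suprachiasmatic nucleus measured in hypothalamus, 12 estimates were below 0 at 8 weeks, with a median of -0.19, and 4 had an unadjusted p under 0.05 by limma, where all genes gave 6.38%. Of 8 hypothalamic identity genes measured in the same comparison, a list that shares Avp with the first, 7 estimates were below 0, with a median of -0.18. Vip, the peptide that couples the neurons of that nucleus, had 7.62, 6.25 and 7.43 in cKO mice against 8.62, 8.87 and 8.75 in controls, a difference of -1.65 ± 0.27 (adjusted p = 0.267). Every cKO value lay below every control value, by at least the gap between 7.62 and 8.62. Dlk1 had 9.36, 9.19 and 9.45 in cKO mice against 9.88, 9.68 and 9.69 in controls (-0.42, adjusted p = 0.375). In the same hypothalamic arrays, microglial markers summed to 88.9 to 107 in cKO mice against 86.0 to 89.2 in controls. The cKO replicates 1 and 2 of these arrays were also those far from the rest on the first principal component. Whether the microglial markers or that component moved with Vip was not tested.

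The genes whose deviations were most like the mean of the 8 day genes were sought over 14103 genes by the mean over the tissues of Pearson's r, 12 arrays each. They were Macroh2a1 (0.77), Cntn2 (0.73), 4930402H24Rik (0.73), Glg1 (0.73) and Crlf3 (0.72), and the least alike were Syt16 (-0.73), Stam2 (-0.72), Eme2 (-0.71), Mcl1 (-0.70) and Pde10a (-0.69). None of these is on the lists of clock genes. Of the other clock genes measured in all tissues, Timeless had the highest value, 0.57, with 0.873% of genes higher, and Prkaa1 the lowest, -0.42. Nampt stood at 0.38, Arntl at 0.37, Ciart, a repressor of the loop, at 0.35, Clock at -0.02 and Npas2 at -0.13.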

How the data were processed

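Biotin-labelled cDNA made from total RNA of 3 animals per group was hybridised to Affymetrix mouse arrays. The authors deposited log2 expression values after RMA (robust multi-array average), run separately for each tissue, and the version was not given in the sources used here. The deposited log2 values were used as they stand. Of 45101 probe sets, 932 named several genes, 9160 none and 64 were controls. They were left out. In each tissue, genes were kept where at least 3 arrays reached 4.12 (cortex), 4.65 (hypothalamus) or 4.46 (hippocampus), the probe set with the highest variance stood for a gene, and limma 3.58.1 (R 4.3.3, statmod 1.5.0) was fitted to 4 groups with Benjamini-Hochberg adjustment and a false discovery rate of 15%. A second fit used every single-gene probe set without the filter. Of the 22 member probe sets, 21 passed the filter in each tissue. Each group had 3 arrays, and an exact permutation test of 3 against 3 arrays cannot go below p = 0.1. The members and lists were chosen with earlier results of these data known. Named genes were all members, list genes that passed or otherwise up to 2 with the lowest p, and the 5 genes most and least like the members. Same-numbered arrays of cKO and control mice deviated together at all 3 replicate numbers in the hypothalamus at 8 weeks alone, with correlations of 0.189, 0.252 and 0.267. Elsewhere the highest were 0.231 (hypothalamus, 4 weeks) and 0.210 (cortex, 8 weeks), each for replicate 3. The main fits took the replicate number as a name in every tissue. The limma fit within a tissue was tested on simulated arrays with known changes in cKO mice at 4 weeks. The other steps were not part of that test. Python 3.11.15 was used for correlations. Leave-outs, other probe set choices, scalings, filters, array weights and a replicate block were the alternatives.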

Additional observations from a re-analysis of the deposited data

Results flagged for a closer look

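For 8 probe sets the cKO effect at 4 weeks differed between cortex and hypothalamus by a test of the difference itself (limma over both tissues, animal as a block, false discovery rate under 15%). The cortex change minus the hypothalamus change was 0.48 for Dbp 1418174_at (adjusted p = 0.120). It was 0.51 for Per3 1421087_at (0.0433), 0.60 for Per3 1441445_at (0.0624) and -0.37 for Per3 1421086_at (0.102). It was 0.33 for Tef 1424175_at (0.0837), 0.62 for Tef 1450184_s_at (0.0535) and -1.14 for Tef 1438033_at (0.0999). It was -0.67 for Hlf 1434736_at (0.0672). Of all probe sets 18.3% differed in the same test, and the part of the cortex arrays that stood apart was not tested beyond leaving them out, which gave 11 member probe sets (47.5% of all).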

How the results depend on the processing

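Of the comparisons of the 10 genes, the hypothalamus and the arrays labelled hippocampus kept a count of 0 under every alternative that was run. All genes gave few calls there too, so that count says little about the members. At 4 weeks all genes gave 0 in hypothalamus and 0 to 2 in the arrays labelled hippocampus. At 8 weeks they gave 0 to 512 and 0 to 3. The highest counts of all genes in the interaction were 313 and 209, and between times in cKO mice 510 and 0. In the cortex at 4 weeks the count of 1 gene became 0 when the fit held just those 6 arrays, by the methods' t-test, with arrays centred on their median (52 genes in all), with quantile normalization (134 genes), with the replicate block (3 genes) and at a false discovery rate of 5% (2 genes). It became 7 with array weights (9509 genes, 64.6%) and 7 without the 3 arrays that stood apart (8961 genes, 60.9%). Leaving out 1 array at a time gave 0 to 6. The count was 6 without control replicate 3 at 4 weeks (6630 genes, 45.1%) and 4 without cKO replicate 3 at 4 weeks (4164 genes, 28.3%). It was 1 without cKO replicate 2 at 8 weeks (1275 genes, 8.67%) and 0 without each of the others. The interaction in cortex, 0 as reported, was 3 with array weights (48.9% of all genes), 3 without the 3 arrays (48.1%) and 0 to 3 leaving out 1 array (3 without cKO replicate 3 at 4 weeks, 13% of all). The cKO time comparison was 3 with array weights (53.6%), 6 without the 3 arrays (55.2%) and 0 to 3 leaving out 1 array (3 without cKO replicate 3 at 4 weeks, 22.7%, 2 without control replicate 3 at 4 weeks, 21.1%, and 1 without cKO replicate 2 at 8 weeks, 16.9%). The control time comparison was 1 when the fit held just its 6 arrays (1.54%), 1 with array weights (9.95%), 1 without the 3 arrays (2.63%) and 0 to 1 leaving out 1 array (1 without cKO replicate 3 at 4 weeks, 4.41%). The difference between cortex and the arrays labelled hippocampus at 4 weeks, 0 probe sets as reported, was 10 without the 3 arrays.

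Taking the probe set of the highest mean turned the sign of Dbp (-0.017) and Hlf (0.16) in the cortex at 4 weeks, of Tef (-0.21) and Hlf (-0.13) in the cortex interaction, of Hlf between times in cKO cortex (-0.092), of Tef in the hypothalamus at 4 weeks (-0.054) and of Per3 in the interaction of the arrays labelled hippocampus (-0.017). The same-animal correlation of Dbp turned to 0.357 without the 3 arrays, 0.327 with the probe set of the highest mean, 0.255 with group means left in and 0.175 without the 2 farthest animals. That of Nr1d2 turned to -0.414 without the 3 arrays and -0.172 without the 2 farthest animals. With the probe set of the highest mean that of Per2 was -0.0525 and that of Tef 0.612, and with group means left in that of Nr1d1 was -0.0671. Without the 2 farthest animals that of Tef was 0.0472, that of Hlf 0.0641 and that of Cry1 -0.00369. The cause of these turns was not tested. The replicate block changed no other call of a member. With 3 arrays per group the number of arrays limits the precision. The limma p-values set a difference against the spread of arrays within groups, and each animal gave 1 array per tissue.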
